A study of Mus musculus with 4 samples.

Results

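Nuclear pore and nuclear transport genes were examined in hematopoietic stem cells that carry a nucleoporin fusion. The group holds 34 genes, listed by symbol: 28 nucleoporins and 6 genes of the transport cycle (Xpo1, Kpnb1, Kpna2, Ran, Rangap1 and Rcc1). All 34 were among the 24016 gene symbols of the count tables, and all 34 were among the 14853 genes tested after a filter on low counts. RNA was sequenced from bone marrow cells of C57BL/6 mice at 4 months of age, sorted as lineage-negative, Sca-1 and c-Kit positive, CD34 and Flt3 negative and CD150 positive. Wild type (WT) and NHD13 were sequenced in 2 libraries each. The NHD13 genotype is a transgene for the fusion of the nucleoporin NUP98 with the homeobox protein HOXD13, a mouse model of myelodysplastic syndrome, and the labels name no other allele or treatment in either group. Whether the duplicates are different animals is not stated, so every SD and p-value covers the variation of these 4 libraries alone.

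The nuclear pore complex is the channel through which proteins and RNA pass between nucleus and cytoplasm. A scaffold of the Y complex and the inner ring, held in the envelope by membrane nucleoporins, carries a central channel of proteins rich in phenylalanine-glycine repeats, with filaments on the cytoplasmic face and a basket on the nuclear face. Importins and exportins carry cargo through the channel, and the small GTPase Ran, loaded with GTP in the nucleus by Rcc1 and made to hydrolyse it outside by Rangap1, gives the transport its direction. NUP98 lies on both faces of the pore. The fusion keeps its repeat-rich part, which is known to bind Rae1 and the exportin Xpo1. Here the levels of the other pore and transport genes were compared between NHD13 and WT cells.

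Taking 1 transcript per gene, the totals were 42664018 (WT 1), 37070939 (WT 2), 35025974 (NHD13 1) and 48423689 counts (NHD13 2). Members were well covered, with 477 to 25191 counts per gene and library. Levels are given in CPM, the usual depth-scaled counts, here after TMM scaling, and a difference is called at an adjusted p under 0.05 by edgeR's quasi-likelihood test over all genes. All 12 markers of stem cell identity were detected in every library. Of these 12, 4 were called lower in NHD13 and none higher, where 329 of all 14853 genes tested were called lower. The summed level of the 12 was 4942 and 5231 CPM in WT and 2953 and 3357 CPM in NHD13. In RNA from whole sorted populations, fewer cells of a type and less RNA per cell cannot be told apart.

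Most of the 34 genes had a slightly higher level in NHD13 cells, and 2 passed the test. The pore membrane gene Nup210 and the exportin gene Xpo1 rose, and no member fell. That is 2 of 34 called higher (5.88 percent), where 2.07 percent of all genes tested were called higher and 4.28 percent were called in either direction. Of the 34, 33 had a log2 fold change above 0, with a median of 0.27, a fold of 1.21. Over all genes tested the median was 0.00 and 50.1 percent were above 0. Among the 8599 genes tested whose average level lay within the members' range, the median was 0.03 and 54.2 percent were above 0. In 26 members (76.5 percent) both NHD13 libraries were above both WT libraries, against 30.1 percent of all genes tested. Rae1 was the 1 member with both NHD13 libraries below both WT libraries, a pattern seen in 30.3 percent of all genes. The groups overlapped for the other 7, Seh1l, Sec13, Ahctf1, Nup35, Nup54, Nup50 and Nup153. At an unadjusted p under 0.05 there were 13 members, all higher (38.2 percent), against 12.9 percent of all genes higher and 26.8 percent in either direction. DESeq2 called 4 members higher (11.8 percent), Nup210, Xpo1, Rangap1 and Nup62, where it called 8.2 percent of all genes higher. Limma-voom called 1, Xpo1, where it called 619 of the 14853 genes tested in either direction. Without WT library 1 the members' median log2 fold change by edgeR was 0.26, with 30 above 0. Without WT library 2 it was 0.28, with 33 above 0. In these fits the NHD13 pair alone gives the spread, and the 1 WT library is assumed to vary like it, so a lost call there says little about the gene. Without NHD13 library 1 the members' median was 0.21, with 33 above 0.

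**Figure D1:**
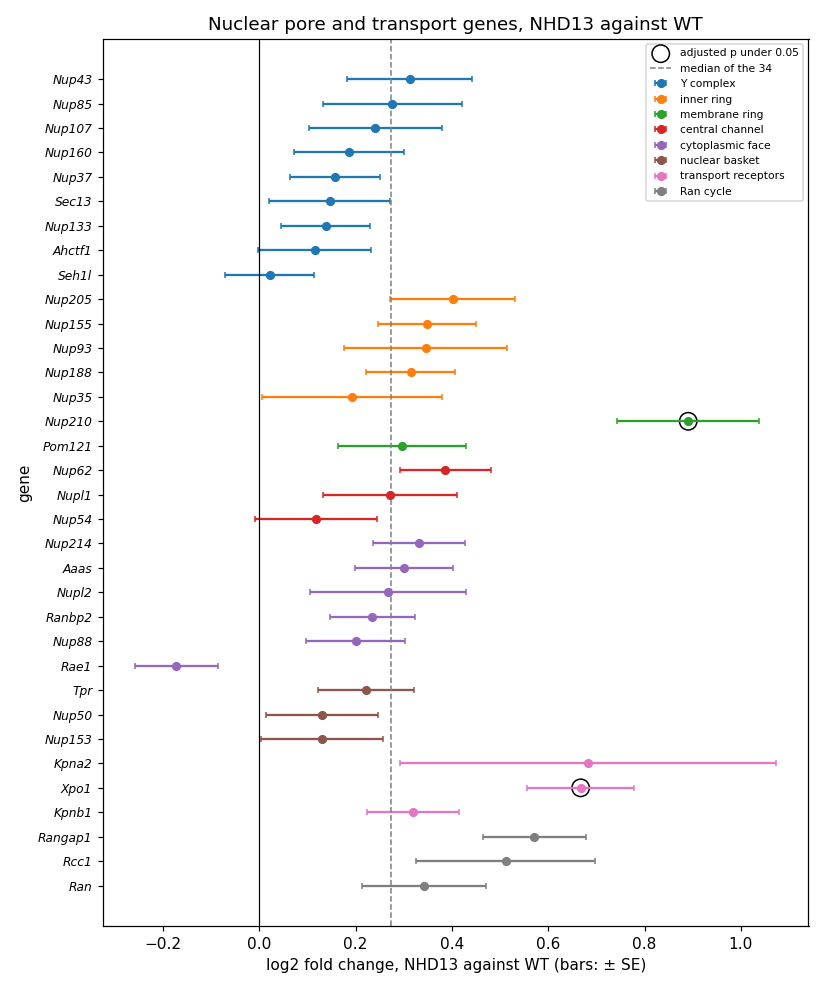
Log2 fold change of NHD13 against WT for each of the 34 genes (x axis), grouped by place in the pore or role in transport (y axis and colour), with bars for ± SE and rings for the genes called. Nup210 at 0.89 and Xpo1 at 0.67 are ringed, Rae1 at -0.17 is the point left of 0, and the dashed line is the median of 0.27.

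Nup210 encodes a membrane glycoprotein of the pore whose amount is known to vary between cell types. It was at 149 and 148 CPM in WT and at 311 and 239 CPM in NHD13. Both NHD13 libraries lay well above the WT pair, which were nearly equal. Nup210 rose by 0.89 ± 0.15 (SE) on the log2 scale, a fold of 1.85, with an adjusted p of 0.0471. The call was close to the threshold: it was lost with limma-voom (adjusted p 0.0502), with a non-robust fit (0.0506), with counts summed over transcripts (0.0653), and without WT library 1 (0.263), WT library 2 (0.237) or NHD13 library 1 (0.0748). Without NHD13 library 2 it was kept. Without an NHD13 library the WT pair alone gives the spread, so a call lost or kept there says little about the gene. The log2 fold change was 0.89 without either WT library, 0.70 without NHD13 library 1 and 1.07 without NHD13 library 2. Pom121, which anchors the pore in the membrane, had 0.30 ± 0.13 and was not called.

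Xpo1 encodes the main exporter of proteins with a leucine-rich export signal. It was at 128 and 131 CPM in WT and at 222 and 190 CPM in NHD13. Here too the WT libraries were nearly equal and the NHD13 libraries both stood above them, NHD13 library 1 the higher. Xpo1 rose by 0.67 ± 0.11, a fold of 1.59, with an adjusted p of 0.0475. The call was lost with median-ratio size factors (adjusted p 0.0502), with counts summed over transcripts (0.0629), when every transcript was tested on its own (0.0586), and without WT library 1 (0.267), WT library 2 (0.232) or NHD13 library 1 (0.113). It was kept without NHD13 library 2. As for Nup210, a call lost or kept in a fit without a library says little about the gene. Without WT library 1 or 2 the log2 fold change was 0.65 or 0.68. Its other transcript in the tables had nearly the same counts, with a log2 fold change of 0.67.

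The upstream sequences of the called genes are shown so that the letters of common promoter motifs can be looked for in them. They are from RefSeq on build GRCm38.p6, which is not the build of the counts, and run 5′ to 3′ over the 250 bases before the annotated start. That of Nup210 is on the minus strand at chr6:91116827-91117076 and that of Xpo1 on the plus strand at chr11:23255791-23256040. Capitals mark a match to TTCCCGC, a form of the E2F motif, in Nup210, which begins 75 bases before the start. In Xpo1 they mark matches to CCAAT, the letters of the CCAAT box, which begin 183 and 140 bases before it.
Nup210: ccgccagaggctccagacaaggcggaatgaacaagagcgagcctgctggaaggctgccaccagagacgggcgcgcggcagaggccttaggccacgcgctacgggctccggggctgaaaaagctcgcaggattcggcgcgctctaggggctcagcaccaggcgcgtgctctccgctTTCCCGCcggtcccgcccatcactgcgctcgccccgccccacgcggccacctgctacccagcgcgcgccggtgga
Xpo1: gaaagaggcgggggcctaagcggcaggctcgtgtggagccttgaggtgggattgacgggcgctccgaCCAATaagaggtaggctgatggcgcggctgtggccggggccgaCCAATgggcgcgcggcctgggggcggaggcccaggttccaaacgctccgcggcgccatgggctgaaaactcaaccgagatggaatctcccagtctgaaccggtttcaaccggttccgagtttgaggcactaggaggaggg

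Of the 34 genes 30 had an entry in that promoter set, with 32 starts in all. The 250 upstream bases had a median GC content of 63.0 percent in these and 52.4 percent over all 32851 promoters of the set. Searched on both strands, TTCCCGC was in 3 of 32 member promoters (9.38 percent; Nup107, Nup210 and Rcc1) and in 3.82 percent of all. CCAAT was in 14 of 32 (43.8 percent, against 33.8 percent of all). The ETS letters CCGGAAG were in 7 (21.9 percent, against 6.91 percent), CACGTG, the E box bound by Myc, in 5 (15.6 percent, against 6.02 percent) and GCATGCGC, a form of the NRF1 motif, in 4 (12.5 percent, against 2.26 percent). TTGGCGC, another E2F form, was in none (1.97 percent of all) and TATAAA was in 3 (9.38 percent, against 12.4 percent). No motif on this list contains another. These are matches of letters in a set richer in G and C than the background, and no binding was measured.

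The 3 genes of the Ran cycle had a median log2 fold change of 0.51, and none was called by edgeR (3 at an unadjusted p under 0.05) or limma-voom, with 1 called by DESeq2. Rangap1, the activator of Ran's GTPase on the cytoplasmic side, was at 90.8 and 84.1 CPM in WT and 137 and 122 CPM in NHD13. The groups did not overlap, with a log2 fold change of 0.57 ± 0.11 and an adjusted p of 0.0581. It was called without a filter on low counts (0.0327), when each gene needed 1 CPM in both WT or both NHD13 libraries (0.0458) and by DESeq2 (0.000672). Rcc1, the exchange factor that loads Ran on chromatin, was at 56.1 and 43.2 CPM in WT and 79.2 and 62.5 CPM in NHD13. WT library 2 was the lowest, and the log2 fold change was 0.51 ± 0.19 (adjusted p 0.169). Ran itself was at 467 and 443 CPM in WT and 640 and 514 CPM in NHD13, or 0.34 ± 0.13 (adjusted p 0.179). All 3 thus had both NHD13 libraries above WT, with NHD13 library 1 above NHD13 library 2.

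The importin genes among the 34, Kpnb1 and Kpna2, followed the same order without being called. Kpnb1, importin beta, was at 82.5 and 79.8 CPM in WT and 106 and 97.0 CPM in NHD13, a log2 fold change of 0.32 ± 0.10 (adjusted p 0.125). Kpna2, an importin alpha that is abundant in dividing cells, had the largest spread between libraries of a group among the 34. It was at 144 CPM in WT library 1 but 64.2 in WT library 2, and at 186 and 149 CPM in NHD13. NHD13 library 2 was therefore close to WT library 1, and the log2 fold change of 0.68 ± 0.39 was not called (adjusted p 0.326). It was 0.22 without WT library 2 and 1.38 without WT library 1. WT library 2 also had the lowest median of the mitosis genes described below.

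**Figure D2:**
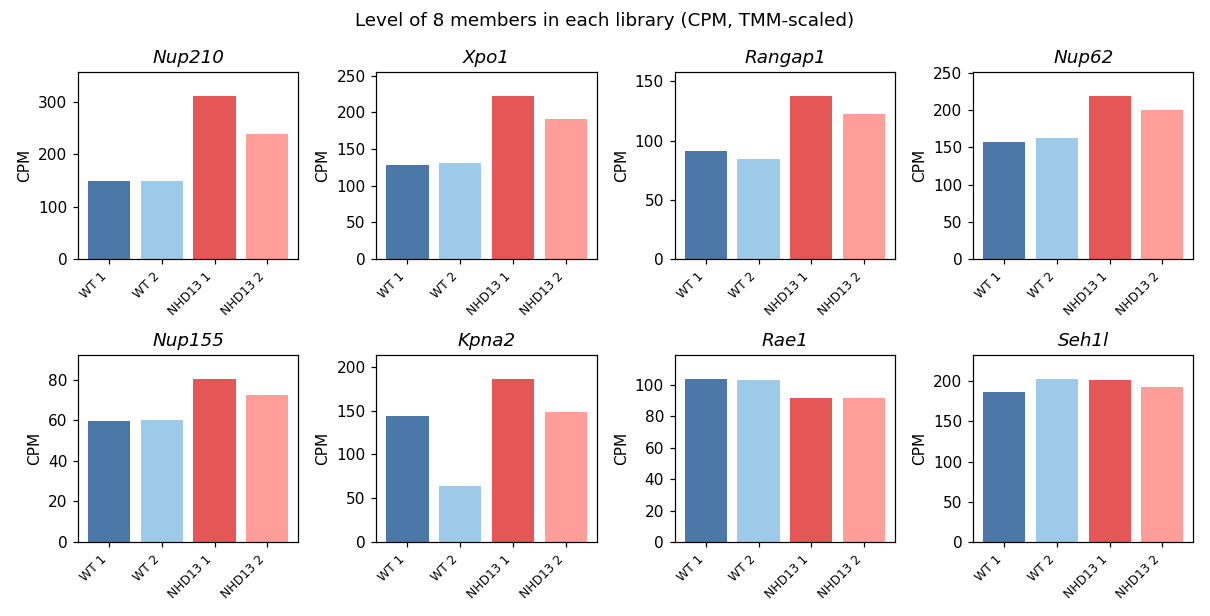
Level in CPM (y axis, from 0) of 8 of the genes in each of the 4 libraries (x axis, 1 bar per library). Nup210, Xpo1, Rangap1, Nup62 and Nup155 are higher in both NHD13 libraries, Kpna2 is low in WT 2 alone, Rae1 is lower in both NHD13 libraries and Seh1l overlaps between groups.

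In the central channel, Nup62, a repeat protein of the transport barrier, was at 158 and 163 CPM in WT and 219 and 200 CPM in NHD13. The groups were well apart, with a log2 fold change of 0.39 ± 0.09, an adjusted p of 0.0874 by edgeR and 0.0103 by DESeq2. Its partners in the channel, Nupl1 (the gene of Nup58) and Nup54, had 0.27 ± 0.14 and 0.12 ± 0.13, and Nup54 was below 0 without WT library 1. Nup62 overlaps Atf5 in the RefSeq gene models, and Atf5 was at 5.17 to 6.98 CPM in the 4 libraries.

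The inner ring, which lines the channel and joins the scaffold to the membrane, had log2 fold changes of 0.19 to 0.40 with a median of 0.35, and none of its 5 genes was called by edgeR, with 3 at an unadjusted p under 0.05 and none called by DESeq2 or limma-voom. Nup205, a large scaffold protein, was at 71.9 and 80.8 CPM in WT and 110 and 92.2 in NHD13 (0.40 ± 0.13). Nup188, related to Nup205, was at 89.2 and 95.9 CPM against 116 and 114 (0.31 ± 0.09). Nup155, which links the scaffold to membrane proteins, was at 59.7 and 60.1 CPM against 80.2 and 72.4 (0.35 ± 0.10). In these 3 genes both NHD13 libraries lay above both WT libraries. Nup93, the hub of the ring, was more variable, at 59.0 and 49.1 CPM in WT and 77.2 and 60.1 CPM in NHD13 (0.35 ± 0.17). Nup35, which binds membranes, had low counts and overlapping groups (0.19 ± 0.19).

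The Y complex, the outer scaffold, had small differences, as did the basket. None of its 9 genes was called by edgeR, DESeq2 or limma-voom and none had an unadjusted p under 0.05 by edgeR. Their log2 fold changes ran from 0.02 to 0.31, with a median of 0.16. Nup43 (0.31 ± 0.13), Nup85 (0.28 ± 0.15), Nup107 (0.24 ± 0.14), Nup160 (0.19 ± 0.12), Nup37 (0.16 ± 0.09) and Nup133 (0.14 ± 0.09) had groups that did not overlap. Nup133, which tethers the complex to curved membrane, was among the least variable, at 62.0 and 60.3 CPM in WT and 68.3 and 66.3 in NHD13. Groups overlapped for Sec13 (0.15 ± 0.13), which also serves in the coat of secretory vesicles, and for Ahctf1 (0.12 ± 0.12), which starts pore assembly on chromatin. Seh1l, a further subunit, was at 187 and 202 CPM in WT and 201 and 193 in NHD13 (0.02 ± 0.09). Without WT library 1, Seh1l and Ahctf1 had log2 fold changes of -0.04 and 0.00 (below 0 before rounding).

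On the cytoplasmic face 5 of 6 genes were above 0 and none was called by edgeR, DESeq2 or limma-voom, with 3 at an unadjusted p under 0.05 by edgeR. Nup214, a docking site for exportins that is itself a fusion partner in leukemia, was at 61.1 and 57.5 CPM in WT and 76.3 and 73.02 in NHD13 (0.33 ± 0.10). Aaas, whose product ALADIN is lost in triple A syndrome, was at 55.2 and 51.4 CPM against 67.6 and 63.6 (0.30 ± 0.10). Ranbp2, the large filament protein that holds Rangap1, was at 119 and 115 CPM against 140 and 135 (0.23 ± 0.09), among the least variable of the members. These 3 had no overlap between groups. Nupl2 (the gene of Nup42; 0.27 ± 0.16) and Nup88, the partner of Nup214 (0.20 ± 0.10), also had both NHD13 libraries above WT.

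Rae1, an RNA export factor that binds the NUP98 part kept in the fusion, was the exception. It was at 103.3 and 103.2 CPM in WT and at 91.6 and 91.6 CPM in NHD13. The libraries of each group were almost identical, and the groups did not overlap. With 2 libraries per group such closeness is no measure of precision. The log2 fold change was -0.17 ± 0.09 and was not called (adjusted p 0.272). It was below 0 in every alternative fit, from -0.18 to -0.16.

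The nuclear basket had log2 fold changes of 0.22 ± 0.10 for Tpr, its main filament protein, 0.13 ± 0.12 for Nup50 and 0.13 ± 0.13 for Nup153, both docking sites at the nuclear side. None was called by edgeR, DESeq2 or limma-voom, and none had an unadjusted p under 0.05 by edgeR. Tpr was the 1 of the 3 whose groups did not overlap, at 221 and 229 CPM against 278 and 246.

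**Figure D3:**
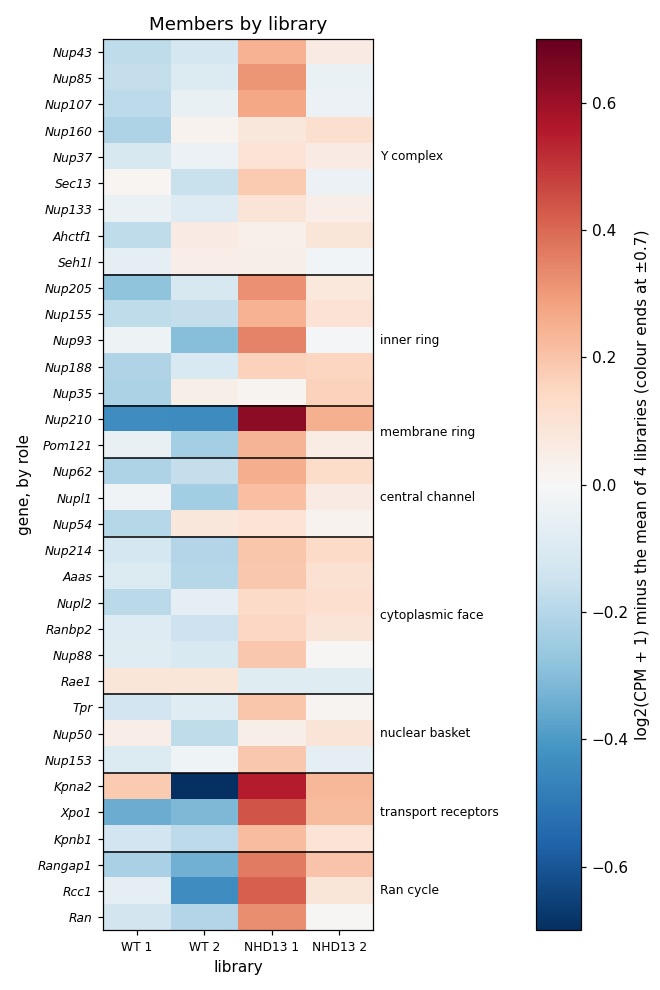
Each row is 1 of the 34 genes, grouped by role, and each column 1 library; colour is the gene's log2(CPM + 1) minus its mean over the 4 libraries, on a scale that ends at ±0.7. Most genes are red in NHD13 1, a paler red in NHD13 2 and blue in both WT libraries, with Rae1 the other way round.

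The members' levels differed between the NHD13 libraries. On the scale of log2(CPM + 1) with each gene centred on its 4 libraries, the median of the 34 was -0.13 in both WT libraries, 0.20 in NHD13 library 1 and 0.08 in NHD13 library 2. Of the 34 genes, 30 were higher in NHD13 library 1 than in NHD13 library 2, and 28 had their highest value of all libraries in NHD13 library 1. In WT, 17 of 34 were higher in library 1 than in library 2. Each NHD13 library was above both WT libraries for 29 members. Without NHD13 library 1 the members' median log2 fold change was 0.21, with 33 of 34 above 0, and without NHD13 library 2 it was 0.35. It was 0.26 without WT library 1, with 30 above 0, and 0.28 without WT library 2.

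The summed levels and medians of cell cycle lists were also higher in both NHD13 libraries, and higher in NHD13 library 1 than in NHD13 library 2. All 16 genes of an S phase list were above 0, with a median log2 fold change of 0.63 and 1 called higher, Ccne2. Both NHD13 libraries were above both WT libraries for 14 of the 16, and the groups overlapped for Ccne1 and Rrm2. Of all genes tested, 30.1 percent had both NHD13 libraries above both WT libraries and 2.07 percent were called higher. Their summed level was 2390 and 2353 CPM in WT and 4201 and 3043 CPM in NHD13, and their median relative to all libraries was -0.27 and -0.33 in WT, 0.53 in NHD13 library 1 and 0.07 in NHD13 library 2. All 18 genes of a G2 and mitosis list were above 0, with a median of 1.001 and 6 called higher (Kif11, Ndc80, Hmmr, Cenpe, Tpx2 and Ccnb2). The groups did not overlap for any of the 18, though Ccnb1, Aurka, Plk1 and Cdc20 were higher in NHD13 library 2 than in NHD13 library 1. Their summed level was 1082 and 816 CPM in WT and 2160 and 1773 CPM in NHD13, and their median was -0.31 and -0.72 in WT and 0.61 and 0.44 in NHD13. No gene of either list was at 0 in any library. The part of the cell cycle in the members' values was not tested.

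**Figure D4:**
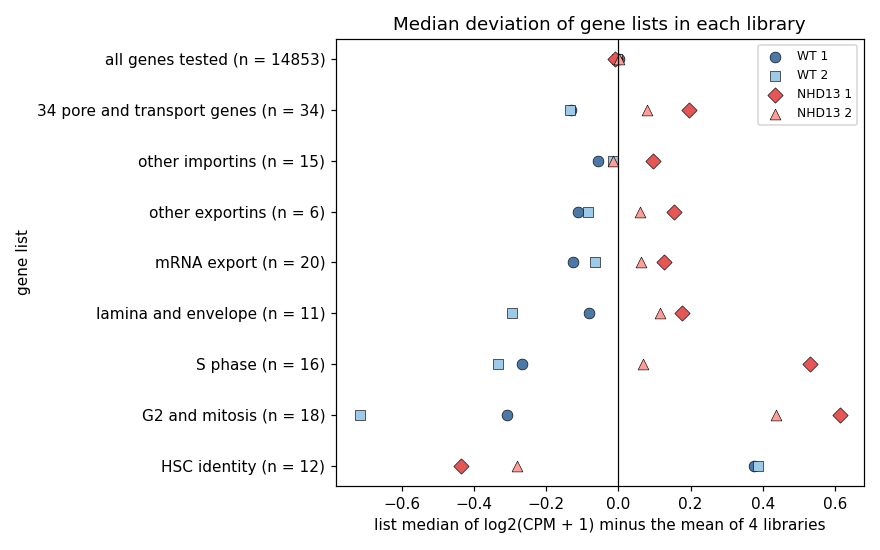
Median of each gene list in each library, as log2(CPM + 1) minus the mean of the 4 libraries (x axis), for all genes tested, the 34 genes, related transport and envelope lists, cell cycle lists and stem cell identity (y axis). The 34 genes lie at -0.13 in both WT libraries, 0.20 in NHD13 1 and 0.08 in NHD13 2, and the cell cycle lists spread further in the same order of groups.

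Markers of other cell types also differed between libraries. Of 9 early granulocyte and monocyte genes 8 were above 0 and 5 were called higher, where 2.07 percent of all genes tested were called higher. Prtn3 went the other way, at 270 and 273 CPM in WT and 229 and 165 CPM in NHD13 (-0.47 ± 0.17, adjusted p 0.171). The groups overlapped for Irf8. The summed level of the 9 was 395 and 380 CPM in WT and 1939 and 1301 CPM in NHD13. That of 8 late neutrophil genes was 317 and 273 CPM in WT, 2752 CPM in NHD13 library 1 and 361 CPM in NHD13 library 2, with none called by edgeR, DESeq2 or limma-voom (1 at an unadjusted p under 0.05). That of 10 lymphocyte genes was 94.3 and 100.3 CPM in WT and 246 and 290 CPM in NHD13, with 2 called higher (Nkg7 and Cd79a). The NHD13 libraries were unlike each other in this list, with medians relative to all libraries of -0.06 in library 1 and 0.91 in library 2. The T cell genes Cd3e and Cd3g were at 0.728 and 1.02 CPM in NHD13 library 1 and at 36.3 and 30.8 CPM in NHD13 library 2, and Gzmb and Il7r were at 0.873 and 0.815 CPM against 30.3 and 14.4 CPM. In WT these 4 genes were at 0.109 to 0.713 CPM. Cd3d, also on the list, was at 0.736 and 0.520 CPM in WT and 0.407 and 0.633 CPM in NHD13, with overlapping groups. Nkg7 was higher in NHD13 library 1 than in NHD13 library 2, at 153 and 82.2 CPM. No gene of these 3 lists was at 0 in any library.

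Of 6 megakaryocyte genes 3 were above 0 and 3 below, and edgeR called 1, Gp9, which was lower. DESeq2 called 3, Gp9 and the higher Pf4 and Ppbp, and limma-voom called 1. Pf4 was at 57.2 and 30.8 CPM in WT and 90.5 and 112 CPM in NHD13. Ppbp was at 2.92 and 2.41 CPM in WT and 6.02 and 5.80 CPM in NHD13. The summed level of the 6 was 447 and 399.9 CPM in WT and 383 and 468 CPM in NHD13. The 8 genes of stromal and endothelial cells held no edgeR or limma-voom call (2 at an unadjusted p under 0.05 by edgeR) and 2 DESeq2 calls. Their sums were 142 and 103 CPM in WT and 86.2 and 118 CPM in NHD13, with medians of 0.52 and 0.06 in WT and -0.85 and -0.02 in NHD13. WT library 1 stood apart in Sparc and Col1a1, at 35.6 and 12.8 CPM against 0.602 and 0.848 CPM in WT library 2, and Lepr was at 0 in NHD13 library 1. The part of these cell types in the members' values was not tested. Without NHD13 library 1, the library high in neutrophil genes, Nup210 and Xpo1 had log2 fold changes of 0.70 and 0.56. Without NHD13 library 2, the library high in Cd3e and Cd3g, they had 1.07 and 0.78. In both fits the WT pair alone gives the spread, so no call is read from them.

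Levels were compared between genes only per length, as CPM per kilobase of the transcript, with lengths from GENCODE M21 transcripts matched to the RefSeq accessions (34 of 34). Ran was the highest member by far, at 191 ± 6.99 (SD, n = 2) in WT and 243 ± 37.4 in NHD13. Nupl2 was the lowest, at 4.37 ± 0.289 and 5.26 ± 0.0486. In WT, Sec13 (67.0 ± 5.68), Rae1 (59.3 ± 0.0193), Nup62 (58.9 ± 1.38) and Seh1l (54.9 ± 3.10) came next, and of these neighbours Rae1 and Nup62 differed by less than the SD of Nup62. Within the Y complex Ahctf1 was lowest, at 7.9995 ± 0.923, and Sec13 highest. In this order Nup210 went from place 18 in WT (21.1 ± 0.101) to place 12 in NHD13 (39.1 ± 7.20), and Xpo1 from 15 (25.2 ± 0.382) to 11 (40.1 ± 4.36). Kpna2 went from place 6 (50.6 ± 27.4) to 2 (81.4 ± 12.7), but its WT mean rests on unlike libraries, at 70.1 in WT library 1 and 31.2 in WT library 2. Rae1 went from place 3 to 8 (52.6 ± 0.0219).

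**Figure D5:**
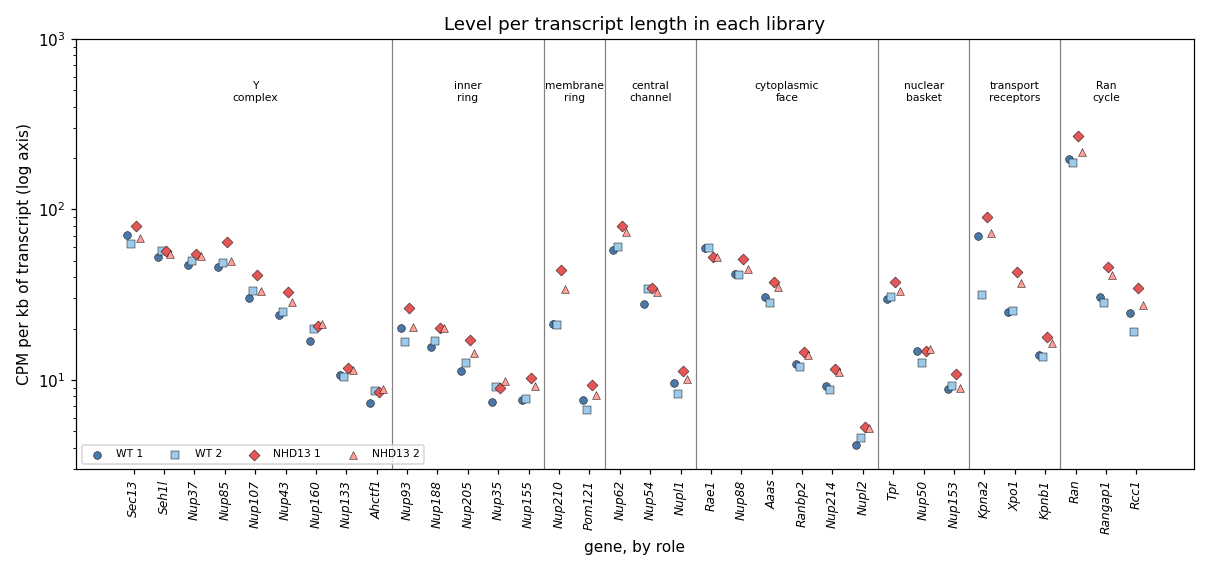
Level per transcript length (CPM per kb, log axis) of each gene in each library (4 symbols per gene), grouped by role. Ran lies above the rest at 191 CPM per kb in WT and Nupl2 is lowest at 4.37. Both NHD13 symbols lie above both WT symbols for Nup210 and Xpo1, as for most of the genes. The WT symbols of Kpna2 are the furthest apart, at 70.1 and 31.2.

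In the RefSeq gene models the 34 genes lie on 13 chromosomes, with at most 5 on any 1, so they are not neighbours of one another as a group. Of the 34, 7 overlap another protein-coding gene (Nup43, Ahctf1, Pom121, Nup62, Nup88, Nup214 and Tpr), and the use of strand in counting is not stated, so reads of such a pair may not be told apart. Xpo1 and Rangap1 overlap no other gene, and Nup210 overlaps a long noncoding RNA. Ran and Kpna2 have near-identical copies in the genome, a retrogene and a pseudogene, and their counts are uncertain to that extent.

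The mouse gene Nup98, which encodes both Nup98 and the scaffold protein Nup96, was at 160 and 158 CPM in WT and 160 and 162 CPM in NHD13 (log2 fold change 0.02 ± 0.08), so its 4 libraries were nearly level. This holds for the 1 transcript kept. With counts summed over transcripts the log2 fold change was 0.11 ± 0.08 (adjusted p 0.456 by edgeR). How reads of the human transgene align to mouse Nup98 was not measured. Of 6 tested genes in its list of other pore genes none was called by edgeR (2 at an unadjusted p under 0.05), 1 by DESeq2 and none by limma-voom. Ndc1, a membrane nucleoporin that anchors Aaas, had 0.44 ± 0.12 (adjusted p 0.107, or 0.0477 by DESeq2). Mcm3ap, which encodes a basket-bound RNA export scaffold, had 0.31 ± 0.12.

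Across the other pore and transport lists, 55 genes were tested, with a median log2 fold change of 0.16, 43 above 0 and 1 called. Of 15 tested importins besides the members, 10 were above 0 and 5 below, with a median of 0.11. Both NHD13 libraries were above both WT libraries for 6 and below for 3, Ipo4, Ipo13 and Snupn. Those patterns held for 30.1 and 30.3 percent of all genes tested. In this list 1 gene was called higher. That gene, Ipo9, an importer of histones, was at 159 and 153 CPM in WT and 220 and 225 CPM in NHD13, a rise of 0.51 ± 0.09 (adjusted p 0.0480). The call was lost with library totals only (adjusted p 0.0577) and without any 1 of the 4 libraries (0.0747 to 0.258), and also with a non-robust fit (0.0503) or counts summed over transcripts (0.0632). All 6 other exportins were above 0, with a median of 0.23 and none called by edgeR (1 at an unadjusted p under 0.05), DESeq2 or limma-voom. Xpo5, the exporter of miRNA precursors, had 0.29 ± 0.09 and Xpo6, the exporter of actin, 0.29 ± 0.13. Among 8 tested Ran regulators none was called by edgeR (3 at an unadjusted p under 0.05), DESeq2 or limma-voom, with Rcc2, a chromatin-bound relative of Rcc1, at 0.46 ± 0.14 and Ranbp1, a cofactor of Rangap1, at 0.30 ± 0.11.

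Messenger RNA export genes, which include the TREX complex and the receptor Nxf1, had 16 of 20 members above 0 and a median of 0.19, with none called by edgeR (5 at an unadjusted p under 0.05), 4 by DESeq2 and none by limma-voom. Ddx39b, the helicase of TREX, was at 286 and 285 CPM in WT and 394 and 367 CPM in NHD13 (0.42 ± 0.09, adjusted p 0.0666, or 0.00122 by DESeq2). Ddx25, a helicase best known from testis, was low throughout, at 3.75 and 2.93 CPM in WT and 0.611 and 0.714 in NHD13 (-2.33 ± 0.41, adjusted p 0.0521). Of 6 SUMO genes, which act on Rangap1 and other targets at the pore, none was called by edgeR (3 at an unadjusted p under 0.05), 1 by DESeq2 (Senp2) and none by limma-voom. The proteases Senp2 and Senp1 had 0.42 ± 0.11 and 0.33 ± 0.11.

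In the nuclear lamina and envelope, 2 of 11 genes were called higher and none lower, where 2.07 percent of all genes tested were called higher. Of the 11, 8 were above 0 and 3 below. Sun1 was lower in both NHD13 libraries, at 102 and 103 CPM in WT and 81.5 and 92.5 CPM in NHD13 (-0.23 ± 0.10). Lmna had -1.62 ± 0.87 with overlapping groups, at 80.1 CPM in WT library 1 and 12.7 CPM in WT library 2. Lbr, the lamin B receptor that holds chromatin at the envelope, was at 434 and 437 CPM in WT and 764 and 638 CPM in NHD13, a rise of 0.69 ± 0.11 (adjusted p 0.0471). Tmpo, which encodes lamina-binding LAP2 proteins, was at 53.4 and 52.7 CPM in WT and 79.3 and 79.7 CPM in NHD13, a rise of 0.58 ± 0.09 (adjusted p 0.0437). Neither was called without WT library 1 (adjusted p 0.267 for Lbr and 0.245 for Tmpo), WT library 2 (0.239 and 0.221) or NHD13 library 1 (0.0966 and 0.113), and Tmpo was not called without NHD13 library 2 (0.0653). Without WT library 1 or 2 the log2 fold changes were 0.68 and 0.69 for Lbr and 0.59 and 0.58 for Tmpo, and no gene was called in those fits. With counts summed over transcripts neither was called (0.0669 for Lbr and 0.0505 for Tmpo), Lbr also not with median-ratio size factors (0.0503) or a non-robust fit (0.0507) and Tmpo not with library totals only (0.0502). In Lbr, as in Nup210 and Xpo1, NHD13 library 1 was the highest and the WT libraries were nearly equal.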

How the data were processed

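Per the labels' protocols, RNA of sorted stem cells was amplified with the SMARTer Ultra Low kit and sequenced as paired ends on a HiSeq instrument. The submitters' processing notes name Bowtie 0.12.2 and mm9. How reads were counted, whether strand was used and how reads with several matches were treated is not given in the sources. The deposited values are raw read counts for 33018 RefSeq transcripts in each library. Low-input amplification without molecular identifiers means that counts are not independent molecules.

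From these counts, the transcript with the highest total was kept for each of 24016 symbols. Genes were filtered with filterByExpr and scaled by TMM, and NHD13 was tested against WT with edgeR 4.0.16 (robust quasi-likelihood fit, R 4.3.3) over 14853 genes, with Benjamini-Hochberg adjustment and a threshold of 0.05. The SE is the log2 fold change divided by the square root of F. The biological coefficient of variation was 26.9%. Libraries of a group differed by far more than sampling noise (chi-square averaged over genes, WT 33.8, NHD13 61.6), so none was a repeat deposit. DESeq2 1.42.0 and limma-voom (limma 3.58.1), other scalings and filters, summed transcripts, a replicate block and leaving out each library were the alternatives. Library medians used log2(CPM + 1). The scripts were tested on simulated data.

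The 34 members and the other lists were chosen with earlier results of these data known. All 34 are named. Values in every library are given for called members, the 12 with the smallest p and the 3 most and 3 least variable between libraries of a group; some others were added after their values were seen. From the related lists the genes called are named, or else the 2 with the smallest p. Repeat content of the proteins was not analysed here.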

Additional observations from a re-analysis of the deposited data

How the results depend on the processing

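With 2 libraries in each group, the number of calls changed with the setting, while the direction of the members mostly did not. Against 2 members called, 1 was called with median-ratio size factors, limma-voom or a non-robust fit, 0 with counts summed over transcripts, 4 with DESeq2, 4 at an adjusted p under 0.1, and 0 to 2 when 1 library was left out. Against 636 genes called, 307 of them higher, there were 1138 (532 higher) without a filter on low counts, 1066 (467 higher) with at least 1 CPM in both libraries of a group, 2604 (1218 higher) with DESeq2, 402 (190 higher) with summed transcripts, 1923 (888 higher) at an adjusted p under 0.1, and 0 to 990 (0 to 449 higher) when 1 library was left out. Without a WT library the NHD13 pair alone gives the spread, and without an NHD13 library the WT pair alone does. Calls lost or kept in those fits thus say little of any 1 gene. The cause of the other changes was not tested. The members' median log2 fold change of 0.27 ran from 0.21 to 0.35 when 1 library was left out. Members above 0 numbered 33 in every alternative except without WT library 1, where there were 30. In that fit Seh1l (-0.041), Ahctf1 (-0.0040) and Nup54 (-0.022) were below 0; over the fits that leave out a library they ran up to 0.081, 0.24 and 0.27.

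Replicate numbers did not pair the samples: deviations from the group means correlated at -0.107 between same-numbered libraries over 14853 genes, though at 0.41 over the 34 members. With the replicate block 107 genes (66 higher) and 0 members were called, with 12 members at an unadjusted p under 0.05; adjusted p-values were 0.0900 for Nup210, 0.106 for Xpo1, 0.122 for Ipo9, 0.102 for Lbr and 0.109 for Tmpo. With the numbers crossed, an alternative chosen after seeing the data, 647 genes and 2 members were called.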
